A study of Arabidopsis thaliana with 24 samples.

Results

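UFO (UNUSUAL FLORAL ORGANS, locus AT1G30950) is a single Arabidopsis thaliana gene, chosen by name, and it was followed across 6 days of early flower development. It had 1 probe on the array and was 1 of 10607 genes tested, of 13745 named genes. Its value on an array is the log ratio of decapped mRNA, that is transcripts that have lost the 5′ cap, to total polyadenylated mRNA of the same tissue. Over 24 arrays the ratio of UFO ran from 0.50 to 1.54, with a mean of 1.01 ± 0.30 (SD, n = 24). If the ratio runs in its likely direction and 0 marks equal shares, UFO had a larger share of decapped than of total mRNA on all 24 arrays. The normalization that sets 0 is not given in the sources used here. No difference between days passed the test.

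The plants were 35S:AP1-GR ap1 cal: they lack the floral regulators AP1 and CAL, form masses of inflorescence-like meristems, and carry AP1 fused to the hormone-binding part of the glucocorticoid receptor. The fusion gene is driven by the 35S promoter, which is active in most plant tissues, and 1 μM dexamethasone switches the protein on, after which flowers begin to form nearly in step. The 6 groups are tissue taken on days 0, 1, 2, 3, 4 and 5 after activation, each in 4 sets of separately collected tissue, and all share the genotype. Each sample pooled tissue of about 25 plants, trimmed close to the inflorescence surface to enrich for meristem cells, so a value averages over plants and over the cell types in the trimmed tissue. The series used here holds no plants without the fusion protein and no mock-treated time course, so time and treatment cannot be told apart.

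UFO encodes an F-box protein, the part of an SCF ubiquitin ligase that picks the substrate. It binds SKP1-like adaptor proteins and acts together with the transcription factor LFY, which needs UFO to activate the petal and stamen identity gene AP3. In the flower UFO is transcribed in a changing domain of young floral meristems, and mutants lacking it form flowers with petals and stamens replaced by other organs. Decapping commits most plant mRNAs to decay from the 5′ end, and cleavage of a transcript also leaves a 3′ piece without a cap, so the decapped pool holds intermediates of both. A ratio says nothing of how much UFO mRNA the tissue held. In this bulk tissue a change in the cells that express UFO and a change in the decapped share per cell cannot be told apart.

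The deposited values were read as log2 ratios of decapped over total mRNA. Neither the log base nor the direction is stated in the sources used here. Both are likely, from the range of the values and from the labels, which put decapped mRNA in the first channel on all 24 arrays. If the ratio ran the other way, each "higher" would read "lower". On a log2 scale the mean of UFO would be a 2.01-fold ratio, with a range over arrays from 1.42-fold to 2.92-fold. Positive correlations linked all pairs of arrays over the tested genes (r from 0.230 to 0.868). The arrays of set 1 on days 2 and 3 stood lowest, with mean correlations of 0.284 and 0.331 with the other arrays of their day. Without them UFO had a value of 1.03 on day 2 and 0.81 on day 3, against 1.00 and 0.90 with them, and stayed past the threshold.

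The first question was how UFO stood on each day. On day 0, before flowers form, the arrays of sets 1 to 4 gave UFO ratios of 0.95, 1.24, 0.73 and 1.10. Day 1 gave 1.48, 0.99, 0.58 and 0.86 in the same order, the widest spread before day 5. These arrays all lie above 0, and the ranges of the 2 days overlap.

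On day 2 the UFO ratios were 0.84, 1.18, 0.92 and 1.05, the tightest of the 6 groups. On day 3 they were 1.22, 0.76, 0.70 and 0.92. Day 4 gave 1.16, 0.90, 0.68 and 0.86. Set 3 was the lowest of its day on 4 of the 6 days and set 1 the highest on 4 of them.

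Day 5, when young flowers are present, stood apart in form. Sets 1, 2 and 3 gave 1.54, 1.52 and 1.54, while set 4 gave 0.50, the lowest UFO value of the whole series. The 3 high arrays lie above all 20 arrays of days 0 to 4, and the low array lies below all of them.

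**Figure D1:**
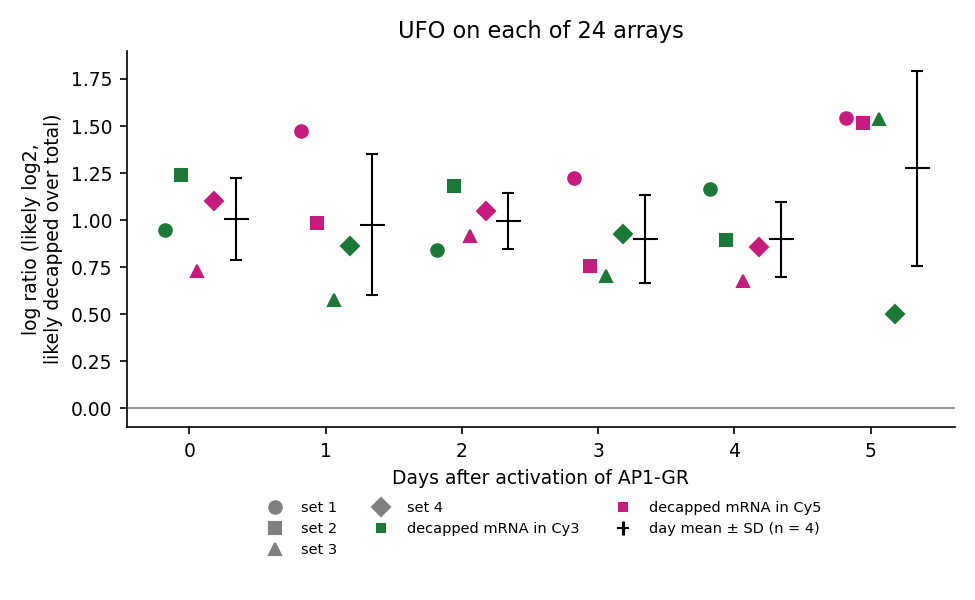
Log ratio of UFO (vertical axis) on each array by day after activation (horizontal axis). Symbols mark the set, colours the dye of the decapped mRNA, and black bars the day mean ± SD of 4 arrays. All 24 points lie between 0.50 and 1.54, and on day 5 the array of set 4 is separate from the other 3.

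As day means, UFO stood at 1.01 ± 0.22 (SD, n = 4) on day 0, 0.98 ± 0.37 on day 1 and 1.00 ± 0.15 on day 2. It stood at 0.90 ± 0.23 on day 3, 0.90 ± 0.20 on day 4 and 1.28 ± 0.52 on day 5. UFO was higher than 0 on each day by limma with Benjamini-Hochberg adjustment over all tested genes, with adjusted p-values from 5.75e-05 on day 5 to 0.00141 on day 4. Such calls were common among genes: 11.6%, 13.7%, 14.0%, 12.3%, 14.1% and 18.3% of tested genes were higher on days 0 to 5. Being higher on all 6 days was less common, with 7.86% of genes.

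Fitted over all days, the UFO mean was 1.01 with a 95% interval from 0.84 to 1.17 (limma adjusted p = 4.76e-10). In that comparison 29.7% of genes were higher and 43.5% lower. A value above 0 on all 24 arrays was found for 7.23% of genes, 767 in number, of which UFO is one. Flipping the signs of the 24 array values at random gave a two-sided permutation p of 1e-05, the smallest that 100000 draws can give. That test takes the arrays as independent. With the 4 set means (SD 0.17 around the mean) an exact sign-flip test cannot go below p = 0.125, which was its value.

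The UFO ratio varied little from array to array beside that of other genes. Its mean was exceeded by 1024 tested genes (9.65%). Its SD over the 24 arrays, 0.30, was undercut by 146 genes (1.38%), and the median SD of tested genes was 0.69. Of the 767 genes above 0 on all arrays, 545 had a higher mean than UFO and 50 a smaller SD. The position of UFO within each array can be read without regard to the array's scale. Between 3.49% and 26.9% of tested genes lay above UFO, with a median of 13.5% over the 24 arrays. The first of these extremes was set 1 of day 1 and the second set 3 of the same day.

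**Figure D2:**
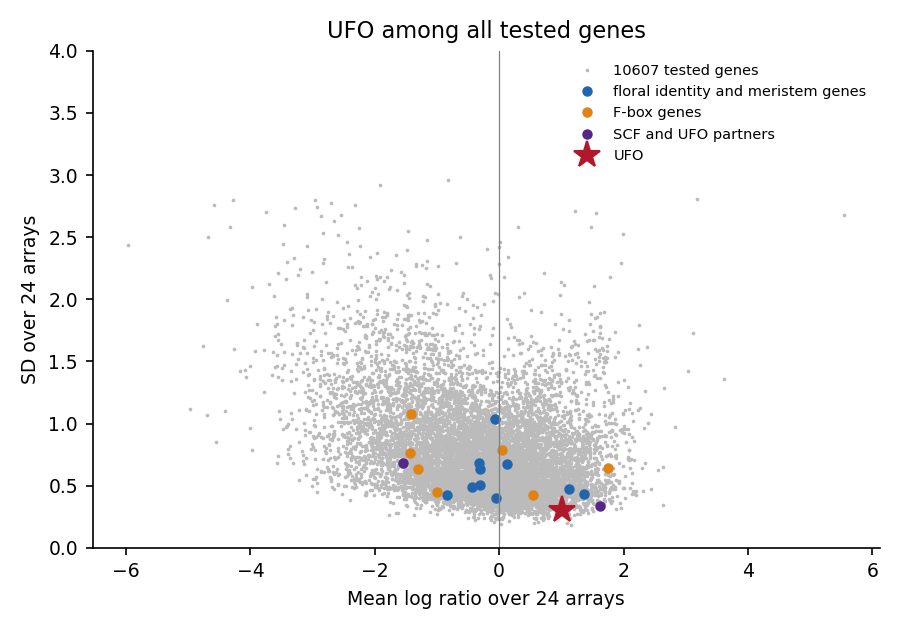
Mean log ratio over 24 arrays (horizontal axis) against the SD over the same arrays (vertical axis) for each tested gene in grey, with the listed genes in colour and UFO as a star. UFO lies to the right of most genes and near the lower edge, with 1.38% of genes below its SD.

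UFO was also set beside genes of like length. It has 1 transcript in RefSeq and spans 1517 bp in the TAIR10.1 annotation. It falls in the second shortest of 5 classes of about equal size, which holds 2115 genes with spans from 1376 to 1921 bp. The median mean ratio of that class was -0.38, against -0.16 for all tested genes. In the class 22.1% of genes were higher in the mean of the 6 days, and 4.49% had a mean above that of UFO.

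The next question was whether the decapped share of UFO changed as flowers formed. In order of level the days ran 5, 0, 2, 1, 3 and 4. The gap between day 5 and day 0 was 0.27 ± 0.28 (SE), with a 95% interval from -0.30 to 0.84. The next gaps were 0.01 between days 0 and 2, 0.02 between days 2 and 1, 0.07 between days 1 and 3 and 0.003 between days 3 and 4, each with the same SE of 0.28. No neighbours in this order differed beyond their spread, and the end points, day 5 minus day 4, differed by 0.38 (interval -0.20 to 0.95, limma adjusted p = 1.00).

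Against day 0, UFO differed by -0.03 on day 1, -0.01 on day 2, -0.10 on day 3 and -0.11 on day 4 (limma adjusted p from 0.993 to 1.00). The moderated F test over days gave an adjusted p of 1.00 and an unadjusted p of 0.768. The slope was 0.03 per day with a 95% interval from -0.06 to 0.12. None of these comparisons called any gene: 0% of the 10607 were past the threshold. An unadjusted limma p under 0.05 was held by 197, 209, 507, 192 and 330 genes for days 1 to 5 against day 0. The F test had 142 such genes and the slope 263. Each of these counts is below what that cut-off would pass by chance alone. With set number in the fit there were 530 for day 5 against day 0 and 286 in the F test. For day 5 against day 0 the interval reaches from -0.30 to 0.84, so these data do not show that the UFO ratio stayed constant. With each array centred on its median that difference was 0.09. The day means of UFO spanned 0.38, less than in most genes: 12.2% of tested genes had a smaller range of day means, and the median range was 0.70.

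The array of set 4 decides the day 5 value. Without it UFO stood at 1.53 ± 0.01 (SD, n = 3) on day 5, and day 5 minus day 0 became 0.52 ± 0.27 (SE), with a 95% interval from -0.04 to 1.09 and an adjusted p of 1.00 by limma (unadjusted p = 0.0691). Against day 4 the difference without that array was 0.63, with an interval from 0.06 to 1.20 and an unadjusted p of 0.0313, but an adjusted p of 1.00. Leaving this array out was decided after its value was seen. Set by set, day 5 minus day 0 was 0.60, 0.28 and 0.80 in sets 1, 2 and 3 and -0.60 in set 4, so UFO was higher on day 5 in 3 of 4 sets.

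**Figure D3:**
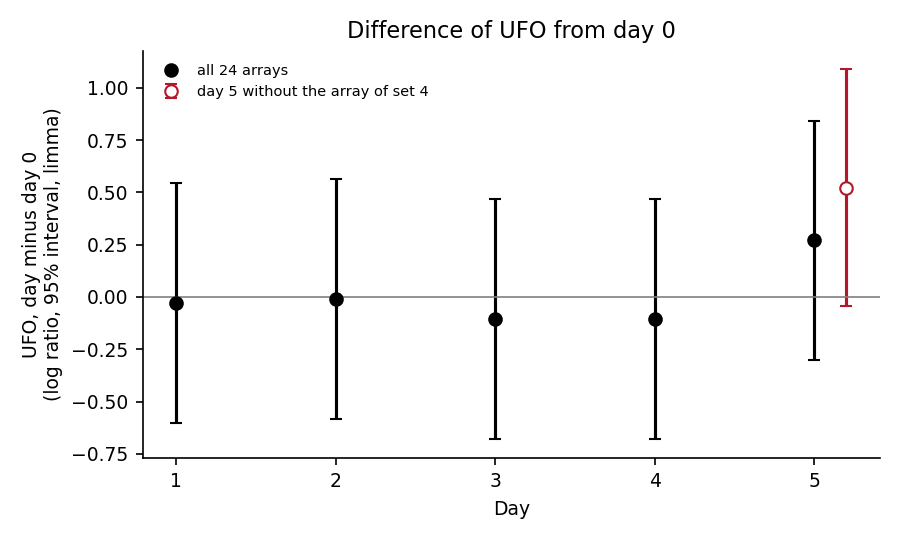
Difference of UFO from day 0 (vertical axis, log ratio) for days 1 to 5, with 95% intervals from limma. Black points use all 24 arrays, and the open red point leaves out set 4 of day 5. All 6 intervals include 0, and the day 5 value moves from 0.27 to 0.52 without that array.

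As a whole, the low array of day 5 did not stand apart from its group. Its mean correlation with the other arrays of day 5 over tested genes was 0.768, the highest of all 24 arrays. Its median over tested genes was -0.17, within the range of -0.56 to 0.19 of all arrays. With array medians taken off, UFO was at 0.67 on it against 1.46, 1.62 and 1.56 on the other arrays of that day. On this array 26.4% of tested genes lay above UFO, against 5.80% to 8.84% on the other 3. Of all tested genes 30.0% had set 4 as the lowest array of day 5, and 2.57% had it lowest by at least the gap of UFO, which was 1.02.

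Dyes were balanced, since each day has 2 arrays with decapped mRNA in Cy3 and 2 in Cy5. With decapped mRNA in Cy3 the UFO ratios had a lowest value of 0.50, a median of 0.91 and a highest of 1.54, with a mean of 0.95 ± 0.29 (SD, n = 12). With Cy5 they had a lowest value of 0.68, a median of 1.02 and a highest of 1.54, with a mean of 1.07 ± 0.31. The groups overlap, and the dye effect was 0.12 ± 0.16 (SE, limma adjusted p = 0.968). A dye effect was called in 0.698% of genes. Within an orientation, day 5 minus day 0 was -0.08 on the Cy3 arrays and 0.62 on the Cy5 arrays, and the Cy3 arrays include the low one of day 5. Both orientations gave UFO above 0 over all days, at 0.95 and 1.07.

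By set, the 6 UFO values of set 1 had a mean of 1.20 ± 0.28 (SD, n = 6) and those of set 2 a mean of 1.10 ± 0.27. Sets 3 and 4 stood at 0.86 ± 0.35 and 0.88 ± 0.21. The ranges of the 4 sets overlap, and set 1 lay above set 3 on 5 of 6 days and above set 4 on 4 of 6.

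Genes that work with UFO were looked up next. Of 16 genes for LFY, its chromatin partners and the SCF ligase with its regulators, 2 were named on the array and tested, and they fell on opposite sides: 1 was higher and 1 lower, where 29.7% of all tested genes were higher and 43.5% lower. CSN5B, a catalytic subunit of the COP9 signalosome, which takes the activating RUB tag off cullins, averaged 1.62 ± 0.34 (SD, n = 24), with no array below 0 (limma adjusted p = 7.92e-13). On day 5 it was at 2.34, 1.38, 2.02 and 1.41 in sets 1 to 4, so its set 4 array did not stand apart. AT3G42830, which has no symbol in RefSeq, is in the list as RBX1B of the SCF ligase. It was at -1.54 ± 0.68 and below 0 on 24 of 24 arrays (limma adjusted p = 6.61e-09). LFY, SKP1, CUL1, AP3 and PI were not analysed here.

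Other F-box genes lay on both sides of 0. A list of 52 was put together from known genes and from RefSeq synonyms that name an F-box. Of these, 8 were named on the array and 7 tested, with 2 higher, 4 lower and 1 not past the threshold. The 2 higher members are 28.6% of the 7, near the 29.7% of all tested genes, of which 43.5% were lower. DOR, the eighth, held on at least 1 day the value that many probes shared. The median of the 7 was -1.003, against -0.16 for all tested genes.

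On the high side was SKP2A, which takes part in the turnover of cell cycle regulators, at 1.76 ± 0.64 (adjusted p = 1.02e-09 by limma). HWS, a regulator of organ growth and shedding, had a mean of 0.55 ± 0.43, with 2 of 24 arrays below 0 (adjusted p = 4.4e-05). Of the 7, SKP2A alone had a mean above that of UFO, where 9.65% of all tested genes did.

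On the low side, FBL17, which acts in cell division, was at -1.43 ± 0.76 (limma adjusted p = 9.76e-08). LCR, the leaf-shape regulator targeted by miR394, was at -1.42 ± 1.08 and below 0 on 24 of 24 arrays. SLY2 and SLY1, F-box proteins of gibberellin signalling, were at -1.31 ± 0.64 and -1.003 ± 0.45, both also below 0 on 24 of 24 arrays. The member that did not pass was AFR, a light signalling protein, at 0.04 ± 0.79 (adjusted p = 0.826). It was named after its values were seen. None of these 7 genes had a smaller SD than UFO, where 1.38% of all tested genes did, and each value belongs to its own probe.

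Among 42 genes for floral and meristem identity, 10 were tested, with 2 higher, 5 lower and 3 not past the threshold, and a median of -0.18. These counts are near the shares of all tested genes, 29.7% higher and 43.5% lower, with a median of -0.16. TSO1, a nuclear protein that limits division in floral meristems, had a mean ratio of 1.36 ± 0.43, with no array below 0 (limma adjusted p = 5.15e-11). Its day means ran from 1.15 on day 0 to 1.55 on day 3. SPT, a helix-loop-helix regulator of the carpel, was at 1.12 ± 0.48 and above 0 on 23 of 24 arrays. TSO1 and SPT are the members with a mean above that of UFO, and none had a smaller SD. Of all tested genes 9.65% had a higher mean and 1.38% a smaller SD.

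The lower members differed in strength. AGL24, a promoter of inflorescence fate, was at -0.84 ± 0.43 and below 0 on 22 of 24 arrays (limma adjusted p = 3.19e-07), and RBE, a petal regulator, was at -0.43 ± 0.49. CLV3 (-0.31 ± 0.51), SPL (-0.33 ± 0.69) and KNU (-0.31 ± 0.63), which act in the stem cell niche, in spore-forming cells and in ending stem cell activity, were no longer past the threshold after centring of arrays on their medians. With centring the median gene moved up by 0.16, and 2 members were lower instead of 5. SEU, a corepressor partner that holds AG back in outer whorls, was at -0.06 ± 1.04, JAG, an organ growth regulator, at 0.13 ± 0.67, and PTL, a regulator of sepals and petals, at -0.05 ± 0.40, with SEU and PTL on the other side of 0 after centring.

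**Figure D4:**
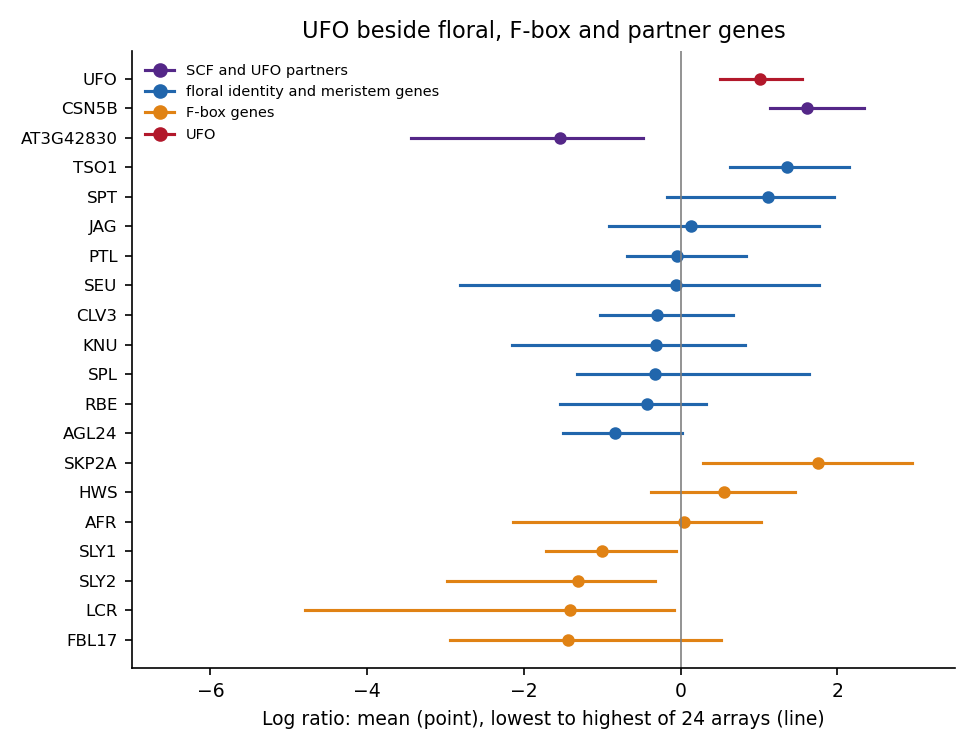
Mean (point) and range over 24 arrays (line) of the log ratio for UFO and the 19 tested genes of the lists, with lists in colour. UFO, CSN5B, TSO1 and SKP2A have their whole range above 0.

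On the low array of day 5, 5 of these 19 genes had their lowest value of the day, beside 30.0% of all tested genes. They were CLV3, RBE, PTL and KNU of the floral list and AT3G42830. More of them, 8 of 19, had their highest value of the day there, beside 19.2% of all tested genes. They were SPT at 1.61, TSO1 at 1.69, JAG at 0.45 and AGL24 at -0.47 of the floral list, and SKP2A at 2.44, SLY2 at -0.41, LCR at -0.54 and FBL17 at -1.33 among F-box genes. The listed genes thus did not lie low together on this array.

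Next to UFO on chromosome 1, of the 3 nearest annotated genes on each side in RefSeq, AT1G30960 was tested. Its mean was -0.99 ± 1.10, with 4 of 24 arrays above 0 (limma adjusted p = 0.000299), the opposite side from UFO.

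Genes whose pattern was most like that of UFO were sought across all tested genes. By Pearson's r over the 24 arrays, with each array's median taken off, the 5 nearest were AT1G56230 (r = 0.70), AT1G49420 (0.65), AT1G53190 (0.60), AT1G23120 (0.56) and NET1D (0.55), a member of a plant family of actin-binding proteins. These values share arrays and array medians, and the genes were picked as the highest of 10606, where r ran from -0.60 to 0.70 with a median of -0.00007. The 5 lie on chromosome 1, but so did 25 of the 100 highest and 25.8% of all tested genes.

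AT1G56230 had a mean ratio of 1.21 ± 0.26 and lay above 0 on all 24 arrays. Its r with UFO was 0.66 without the 2 arrays farthest from the median of UFO, 0.76 without day 5 and 0.60 once each gene's set means were removed. Of the 6 lowest arrays, 5 were of set 3 for UFO and 5 for AT1G56230. Spearman's rho over the 24 arrays was 0.69. AT1G49420 had a mean of -0.22 ± 0.39 and an r of 0.60 without those 2 arrays and 0.52 with set means removed. These checks reuse the arrays on which the genes were picked, so they do not test the likeness anew. For the other 3 genes, r depended on the check. Without those 2 arrays r was 0.47 for AT1G53190, 0.44 for AT1G23120 and 0.55 for NET1D. With set means removed r was 0.55, 0.58 and 0.38 in the same order. The rho of NET1D was 0.45.

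**Figure D5:**
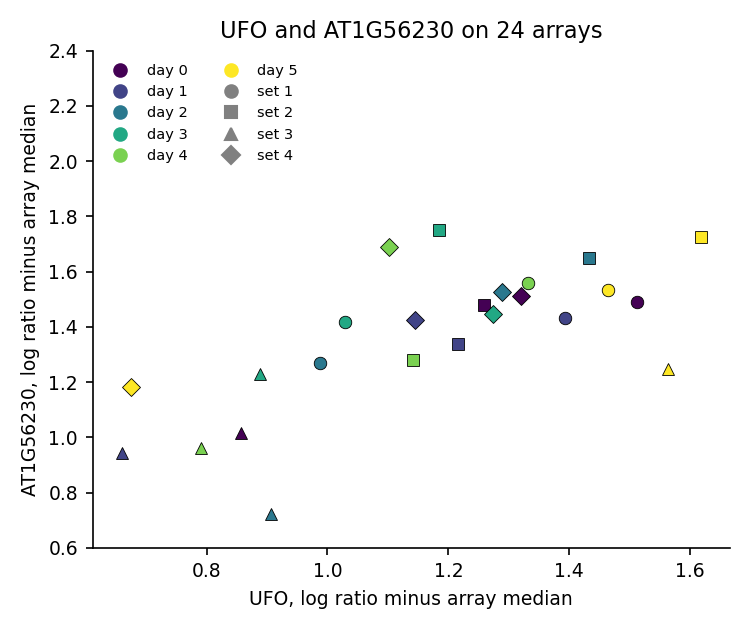
UFO (horizontal axis) against AT1G56230 (vertical axis) on 24 arrays, both as log ratio minus the array median over tested genes. Colours mark the day and symbols the set. Pearson's r was 0.70, and triangles of set 3 fill most of the lower left.

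By the 6 day means, the 5 nearest genes were AT3G19870, AT3G24700, AT3G62010, AT3G43230 and MAK10, the last related to a subunit of a yeast N-terminal acetyltransferase. Their root mean square differences from UFO were 0.077 to 0.086, and their means 1.02 to 1.08 for the first 4 and 1.01 for MAK10. Each lay above 0 on 24 of 24 arrays. Over single arrays their r with UFO was 0.11 to 0.30. On the low array of day 5 they stood at 1.08, 1.08, 1.48, 1.33 and 1.53, against 0.50 for UFO. All 5 lay above UFO on that array.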

How the data were processed

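UFO was followed on 24 two-colour long-oligonucleotide arrays. The deposited values are log2 ratios of the 2 channels (scale and direction read as described above), normalized by the authors. The table was available after this step, and the sources used here do not give the background correction, the method of normalization or any centring. The table holds no signal over background, so how bright the UFO spot was is unknown, and the number of arrays limits the precision. All 26102 probes were read, and 0 sample columns were unused. The platform annotation named 13960 probes with 1 gene and left 12142 unnamed, and names were updated through RefSeq (TAIR10.1). A single value, opposite in sign between dye orientations, was repeated over 770 to 4424 probes depending on the day. These were removed as not measured, and UFO held it on no day. Several probes of 1 gene were averaged. Genes with fewer than 2 values on any day, 3138 in all, were left out.

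Limma 3.58.1 in R 4.3.3 (lmFit, eBayes) was fitted over all 10607 genes with 6 day means plus a dye term, with two-sided tests, Benjamini-Hochberg adjustment and a threshold of 0.05. Tables and plots used Python 3.11.15, pandas 2.3.3, numpy 2.4.6 and matplotlib 3.10.9. The fit was tried on simulated data with noise independent between arrays, which cannot show how correlation within sets affects the p-values. The series' design text calls the 4 sets biologically independent. UFO, the lists and the naming rule were chosen with earlier results of these data known. The rule named UFO, all tested members of the partner and floral lists, up to 4 F-box genes by p and 3 from each end by mean, the 5 genes nearest by each measure of likeness, and tested neighbours. The list of markers of other tissues had 0 members among the genes named on the array. Alternatives were no dye term, set as a fixed or random block, centring, scaling, array weights, no filter, 1 dye orientation, set means, 1 day alone, and leaving out each set or, added later, each array.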

Additional observations from a re-analysis of the deposited data

Results flagged for a closer look

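UFO on day 5 in set 4, at 0.50, was far from the other 3 arrays of its day. The gap to the nearest array was 0.975 of the day's whole range, past Dixon's 95% critical value for 4 samples. About 1 in 20 groups passes that value by chance. All 6 days of UFO were tried, which makes it more likely that 1 of them passes. Of the 10607 tested genes 5.29% passed on day 5, 0.839% with set 4 as the low array and 0.424% with set 4 as the high one.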

How the results depend on the processing

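UFO stayed above 0 in all 266 values of its mean and its 6 days under the alternatives, and 255 of these passed the threshold. The mean of the 6 days ran from 0.95 to 1.19 and passed under all 38 alternatives (limma adjusted p from 2.84e-11 to 0.00200). The 11 values that did not pass came from fits with fewer arrays. With the 12 arrays that had decapped mRNA in Cy3 the days stood at 1.09, 0.72, 1.01, 0.81, 1.03 and 1.02, and none passed. With the 12 Cy5 arrays days 0, 2, 3 and 4 stood at 0.92, 0.98, 0.99 and 0.77 and did not pass. UFO on day 3 did not pass from its own 4 arrays (0.90, limma adjusted p = 0.0693).

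Small differences from day 0 changed sign with the processing and never passed. With centring and scaling, days 1 and 4 became 0.14 and 0.0298 and UFO day 2 minus day 0 became 0.0765, with array weights 0.0775. On Cy3 arrays day 5 became -0.0755, and on Cy5 arrays days 1, 2 and 3 became 0.32, 0.0661 and 0.0732. Within an orientation, days 1, 3 and 5 hold other sets than day 0, so their differences also compare sets. Day 2 holds the same sets as day 0. Leaving out sets or single arrays moved day 1 between -0.21 and 0.12, day 2 between -0.13 and 0.10, day 3 between -0.23 and 0.10 and the slope between -0.00649 (without set 3) and 0.0671. The cause of these changes was not tested. Without set 3, day 5 minus day 0 fell to 0.02 and without set 4 rose to 0.55.

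Of the floral list, 2 members were lower with centring, with centring and scaling, with set as a random block and on Cy5 arrays, 3 on Cy3 arrays and 1 from set means, against 5, and 2 to 5 when sets or arrays were left out. Among all genes the count of lower ones ran from 3717 to 4898 over the alternatives, against 4611. SEU became 0.10 with centring, 0.22 with scaling and 0.0541 on Cy5 arrays. PTL became 0.11 with centring and 0.13 with scaling. Leaving out sets or arrays moved SEU between -0.193 and 0.122, JAG between -0.0199 and 0.278 and PTL between -0.122 and 0.0667.

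The set numbers were tried as a replicate block. Deviations from day means correlated above 0.1 in 48 of 60 pairs of arrays of the same set. Of pairs from different sets and days, 21 of 180 did so. The pairing is thus a hint from the data only. With set as a fixed block the mean of UFO was 1.01 (limma adjusted p = 8.2e-10). Day 5 minus day 0 was 0.27 ± 0.26 (SE), and no call on UFO changed. That fit takes differences between sets out of the error, so its p for the mean does not allow for correlation within sets. With set as a random block the mean passed at a larger adjusted p than in the main fit. From set means it passed with a limma adjusted p of 0.00200, the largest of the alternatives. In the fixed-block fit, set number was called in 1634 tested genes (15.4%) and not in UFO (limma adjusted p = 0.481).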
